A study of Mus musculus with 15 samples.

Results

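The colons of Irf1-/- mutants and of B6 mice, all taken at day 26 (D26) of the same AOM/DSS treatment, were compared gene by gene. The 6 samples, 3 mice of each genotype, are those that the labels give as D26, out of 15 samples in the series. Tested were the 12483 genes present both in the table of treated B6 mice and in that of treated mutants.

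B6 mice are C57BL/6 wildtype animals (C57BL/6J in the methods of the paper), and the Irf1-/- mutants carry a deletion of Irf1 on the C57BL/6 background. Mice of 8 to 10 weeks received 7 mg/kg AOM, a colon carcinogen, on D1. From D8 to D11 they drank 2% DSS, which injures the colonic epithelium. Untreated B6 mice (control set 1, tabulated with the treated B6 mice) and untreated mutants, 3 of each, serve below as the background without treatment. The distal colon was used whole, so epithelium, muscle, connective tissue and immune cells were measured together. Libraries were stranded, depleted of ribosomal RNA and read as 50 bp pairs. On the tested genes, the B6 D26 libraries held 22802006, 22797692 and 22803772 reads and the Irf1-/- D26 libraries 22449807, 22478499 and 22519248. Levels below are CPM, the normalised read count that divides by library size, here with TMM factors. They are listed by replicate number, and the mice of the groups are not paired.

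Irf1 encodes a transcription factor that interferons, above all interferon gamma, induce in most cell types. It binds promoters of genes for antiviral defence, for cutting and loading the peptides that MHC class I displays, and for interferon-inducible GTPases. In the gut it also acts in epithelial cells, where butyrophilin-like proteins are displayed to intraepithelial gamma delta T cells.

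The knocked-out gene was still counted in every library. The Irf1 level was 174, 223 and 227 CPM in treated B6 colons and 108, 123 and 100 CPM in treated mutants. All mutant libraries lay below all B6 libraries, and the log2 fold change (FC, mutants over B6) was -0.93 (standard error, SE, 0.13, edgeR adjusted p = 0.0117). Without treatment Irf1 stood at 153 ± 8.87 CPM in B6 and 94.8 ± 19.9 CPM in mutant colons (SD, n = 3 mice each). Gene-level counts do not tell exons apart, and the sources used here do not give the deleted part, so this level alone does not check the genotype.

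Genes counted as called where the FC was 1.5 or more and the adjusted p (edgeR, quasi-likelihood F test) under 0.01. Among the 12483 genes tested, 39 (0.312%) were lower and 9 (0.0721%) higher in treated mutants than in treated B6 colons. The balance of the directions depended on the tool and on the libraries fitted, as DESeq2 called 142 lower and 128 higher, the exact test of edgeR 149 and 126, and 1 edgeR fit of all 15 libraries 113 and 127. With an adjusted p under 0.05 in the main edgeR fit, these counts were 106 (0.849%) and 78 (0.625%), and 1322 and 1426 genes had an unadjusted p under 0.05. The latter were together 22% of the genes tested, the share to set beside the counts of list members below. For all 48 called genes the libraries of the genotypes did not overlap, which held for 1616 (12.9%) of the genes tested in the lower and 1816 (14.5%) in the higher direction. With a GC correction of every library, 42 genes were lower and 4 higher. Single mice moved the counts as well. Leaving out a B6 mouse gave 45 lower and 3 higher genes without replicate 1, 24 and 8 without replicate 2, and 19 and 1 without replicate 3. Leaving out a mutant gave 16 lower and 1 higher without replicate 1, 17 and 1 without replicate 2, and 21 and 3 without replicate 3. Of the 48 genes, 13 were called in each of these 6 fits, and all 13 were lower. They were Btnl4, Btnl5, Btnl6, Psmb10, Tapbp, Uba7, Parp10, Parp12, Ly75, AW112010, Gm14446, Mettl7a2 and Entpd4.

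The log2 FC ran against GC content across 12382 genes, which are not independent replicates (Spearman's rho = -0.58). Among genes of the poorest of 10 GC bins the log2 FC had a median of 0.29, and among those of the richest bin one of -0.18. The slope of expression on GC content was 0.175, 0.120 and 0.268 log2 units per 10% GC in the treated B6 libraries. It was -0.031, -0.090 and 0.015 in the treated mutants, and between -0.142 and -0.012 in the untreated libraries of both genotypes. The treated B6 libraries thus stood apart from the 9 others. After the correction rho was 0.002, and 34 of the 39 lower and 4 of the 9 higher genes were still called. Among these 4 was OTTMUSG00000016609, for which no GC value was available, so the correction was no check of its call. Median GC content was 52.1% for called lower, 42.5% for called higher and 49.6% for all tested genes. The part of base composition in the single differences was not tested beyond this correction.

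**Figure D1:**
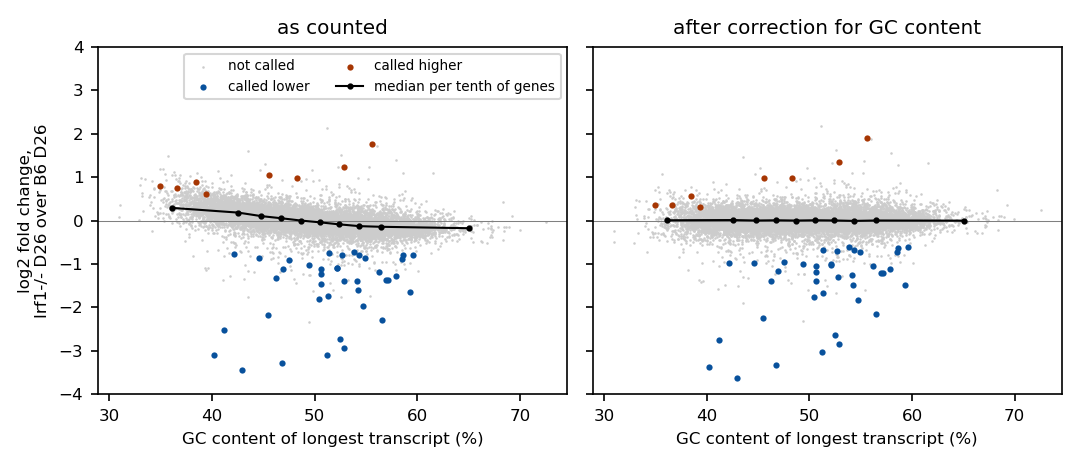
Log2 FC of treated mutants over treated B6 colons against the GC content of each gene (%), as counted and after the GC correction, with called genes marked and medians drawn for bins of equal gene number. The medians run from 0.29 to -0.18 as counted and lie near 0 after the correction.

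The labels used here do not give the sex of single mice, and the level of Xist, which females express, varied within groups. It was 25.2, 5.97 and 2326 CPM in treated B6 colons and 11.6, 1801 and 888 CPM in treated mutants. High and low libraries occur on both sides. No Y-linked gene was among those tested, and of the list of Y-linked genes and Xist only Xist was tested (log2 FC 0.16, SE 1.82). With log2 Xist as a covariate, 34 genes were lower and 10 higher, and 36 of the 48 genes were among them.

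Enzymes that make peptides for MHC class I come first. Psmb10 encodes a catalytic subunit of the immunoproteasome, the form of the proteasome that interferon induces. Its level was 75.1, 94.0 and 93.5 CPM in treated B6 colons and 15.7, 19.8 and 18.6 CPM in treated mutants. Every mutant library lay far below every B6 library (log2 FC -2.30, edgeR adjusted p = 0.000126). Psmb8, another of these catalytic subunits, was counted at 41.7, 89.0 and 78.2 CPM in B6 and at 12.4, 10.5 and 9.06 CPM in mutants. B6 replicate 1 was the lowest of its group and still above all mutants (log2 FC -2.73, SE 0.27, edgeR adjusted p = 0.00209), but Psmb8 was called in only 2 of the 6 leave-one-out fits. Psme1 and Psme2 encode the interferon-inducible activator that opens the proteasome. The Psme1 level was 89.2, 109 and 110 CPM in B6 and 48.8, 45.2 and 42.7 CPM in mutants. For Psme2 it was 94.1, 126 and 127 CPM in B6 and 47.4, 45.4 and 41.0 CPM in mutants. Both genes fell, with log2 FC of -1.19 and -1.39 and groups that did not overlap. In a whole colon, fewer cells of a type and less RNA per cell cannot be told apart.

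Among genes for the transport and loading of these peptides, Tap2 and Tapbp were called lower. Tap2, part of the pump that carries peptides into the endoplasmic reticulum, stood at 44.2, 65.5 and 60.7 CPM in B6 and at 20.9, 22.3 and 23.7 CPM in mutants. Tapbp, which holds empty class I molecules at that pump, stood at 253, 312 and 315 CPM in B6 and at 116, 112 and 118 CPM in mutants. The mutant libraries lay close together and well below B6 for both, and the log2 FC was -1.37 for Tap2 and -1.37 for Tapbp. Tapbp was called in all 6 leave-one-out fits and Tap2 in 2. Of the class I molecules themselves, 10 H2 genes of the list were tested, with log2 FC from -1.13 to -0.05. In edgeR 0 of the 10 were called and 8 had an unadjusted p under 0.05, while DESeq2 and the exact test called 7 each and voom 1. The next 6 genes were chosen after their values were seen. H2-T23 was at 347, 353 and 348 CPM in B6 and at 200, 239 and 212 CPM in mutants (log2 FC -0.70, edgeR adjusted p = 0.0106). H2-K1 was at 863, 1269 and 1079 CPM in B6 and at 575, 571 and 489 CPM in mutants (log2 FC -0.99, edgeR adjusted p = 0.0147). The genotypes did not overlap for either gene, but neither passed the call rule. H2-Q2 had a log2 FC of -1.13 and H2-Q10 of -0.98 (edgeR adjusted p = 0.0136 and 0.0291), also without overlap. The log2 FC was -0.61 for H2-D1 (edgeR adjusted p = 0.0417) and -0.82 for B2m, the light chain (adjusted p = 0.128, groups overlapping). Without treatment, mean levels in B6 and mutants were 145 and 154 CPM for H2-D1 and 17.7 and 18.7 CPM for H2-Q10, so mutants were not lower. They were 667 and 583 CPM for H2-K1, 268 and 238 CPM for H2-T23, and 41.2 and 31.3 CPM for H2-Q2. Reads of the H2 genes are hard to assign because the genes are near-identical, so their counts are uncertain. Of 24 tested genes for class I and its peptide supply, 6 were called lower and 0 higher in edgeR, and 14 were lower with an adjusted p under 0.05. DESeq2 and the exact test called 14 of the 24 lower each and voom 7, and 19 had an unadjusted p under 0.05. The list had 3 positive log2 FC and a median of -0.74, against -0.01 over all genes tested. After the GC correction the median was -0.80.

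**Figure D2:**
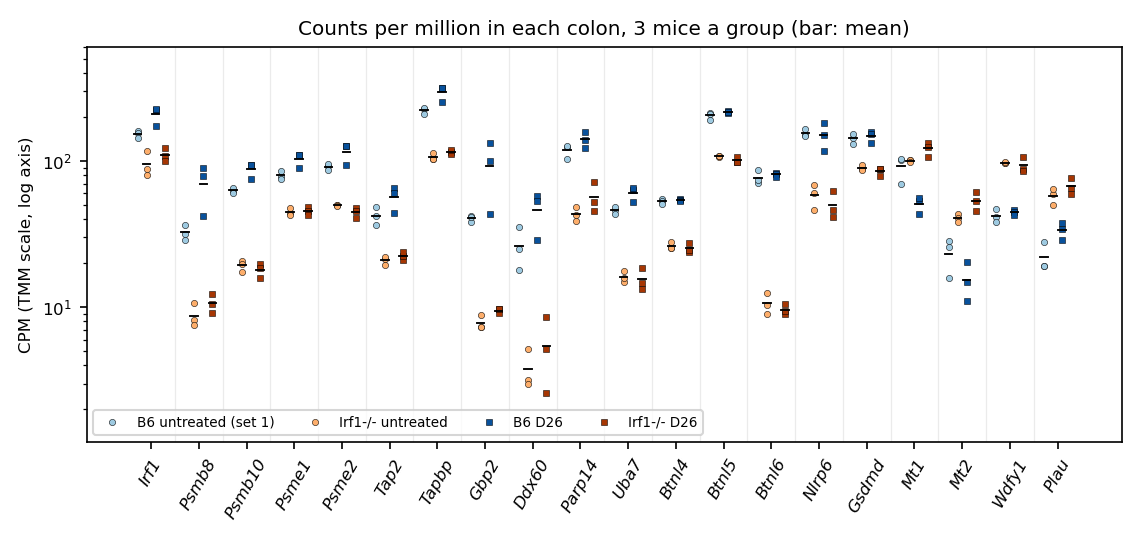
Level of 20 genes in each colon (CPM, logarithmic axis) for untreated and treated B6 mice and mutants, with 1 point per mouse and a bar at the mean of 3 mice. Psmb10, Tapbp and Btnl6 show no overlap between genotypes with or without treatment.

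Antiviral genes that interferons induce were the next group. Uba7 encodes the enzyme that activates Isg15 for attachment to other proteins. It was counted at 52.7, 62.9 and 65.2 CPM in treated B6 colons and at 14.6, 18.6 and 13.4 CPM in treated mutants, with a wide gap between the groups (log2 FC -1.97, SE 0.14, edgeR adjusted p = 0.000594). Ddx60, an RNA helicase-like gene of the antiviral response, was at 28.9, 57.2 and 53.3 CPM in B6 and at 5.20, 8.54 and 2.59 CPM in mutants. The groups were apart although the mice within each differed (log2 FC -3.11, SE 0.39, edgeR adjusted p = 0.00735), and Ddx60 was called in 1 of the 6 leave-one-out fits. Genes for interferon-induced members of the PARP family, which attach ADP-ribose to proteins, were called lower as well. Parp12 stood at 123, 117 and 130 CPM in B6 and at 55.6, 57.5 and 46.0 CPM in mutants. Parp14 stood at 123, 158 and 140 CPM in B6 and at 52.1, 71.2 and 45.6 CPM in mutants. The log2 FC was -1.23 for Parp12, -1.33 for Parp14, -1.27 for Parp10 and -0.92 for Parp9. Parp10 and Parp12 were called in all 6 of those fits, Parp14 in 2 and Parp9 in 1. Oasl2, named after its values were seen, was at 15, 37.1 and 33.7 CPM in B6 and at 5.47, 7.52 and 4.15 CPM in mutants (log2 FC -2.34, edgeR adjusted p = 0.0147). It lay lower in all mutants but outside the call rule. Of 32 antiviral genes tested, 6 were called lower and 0 higher in edgeR, and 15 were lower with an adjusted p under 0.05. DESeq2 and the exact test called 16 lower each and voom 5, and 23 had an unadjusted p under 0.05. The log2 FC was positive for 3 of the 32 (median -0.63, after GC correction -0.68).

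Interferon-inducible GTPases attack the vacuoles of intracellular microbes. Gbp2 was at 43.3, 132 and 100 CPM in treated B6 colons and at 9.66, 9.12 and 9.68 CPM in treated mutants. B6 replicate 1 was the lowest of its group, while the mutants hardly differed from one another (log2 FC -3.29, SE 0.36, edgeR adjusted p = 0.00355). Near-identical relatives make the Gbp2 count uncertain, and the gene was called in 2 of the 6 leave-one-out fits. Irgm2 was at 58.9, 89.6 and 76.1 CPM in B6 and at 35.6, 49.9 and 41.4 CPM in mutants, apart in all libraries (log2 FC -0.84, edgeR adjusted p = 0.0425). Tgtp2 and Irgm1 had log2 FC of -1.76 and -0.73 (edgeR adjusted p = 0.0618 and 0.0648), and Tgtp2 also has a near-identical relative. Igtp, named after its values were seen, was at 13.2, 35.3 and 23.6 CPM in B6 and at 7.94, 14.1 and 8.48 CPM in mutants. Its groups overlapped because B6 replicate 1 was below mutant replicate 2. Of 12 tested GTPases, edgeR called 1 lower and 0 higher. DESeq2 called 6 of them lower, the exact test 7 and voom 0, while 9 had an unadjusted p under 0.05. All 12 were negative in log2 FC, with a list median of -0.85 (-0.94 after the GC correction). A further 9 GTPases on the list were not tested, because they were not in both tables. Of these, Gbp4, Gbp5, Gbp8, Gbp10 and Ifi47 were present only in the table of B6 mice, 0 only in that of the mutants, and 4 were in neither table under the listed names. The antiviral genes Rsad2, Rtp4 and Zbp1 and the immunoproteasome gene Psmb9 were likewise tabulated only for B6 mice. In treated B6 colons Psmb9 was at 12.2, 28.8 and 28.9 CPM, again lowest in replicate 1. No fold is given for these genes, since the table of treated mutants does not hold them.

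MHC class II, which displays peptides to CD4 T cells, had 0 called genes among 11 tested in edgeR, and 0 in DESeq2, the exact test of edgeR and limma voom, with 8 at an unadjusted p under 0.05. H2-Ab1 was at 122, 303 and 198 CPM in B6 and at 134, 133 and 114 CPM in mutants, overlapping because of B6 replicate 1. H2-DMb1, which helps exchange the peptide, had a log2 FC of -0.90 (edgeR adjusted p = 0.130) and H2-DMa -0.77 (0.117). Ctss, a protease that trims the class II invariant chain, was at 282, 315 and 289 CPM in B6 and at 187, 211 and 219 CPM in mutants, without overlap (log2 FC -0.54, edgeR adjusted p = 0.0305). Of the 11 genes, 1 was positive in log2 FC, with a list median of -0.57.

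Signalling genes upstream of these targets were listed too, with the knocked-out Irf1 itself among them. Of 32 tested genes for interferon receptors, Jak kinases, Stat and Irf factors and Socs inhibitors, 0 were called in edgeR and voom. DESeq2 and the exact test called 2 lower. For 7 the unadjusted p was under 0.05, a share near the 22% of all tested genes. The log2 FC was positive for 13, with a list median of -0.10 and a range from -1.75 to 0.25. Irf7, a factor that interferons induce and that in turn drives interferon genes, was at 42.4, 79.0 and 67.7 CPM in B6 and at 21.4, 23.3 and 12.2 CPM in mutants. Its groups were apart, with a log2 FC of -1.75 and an edgeR adjusted p of 0.0197. Irf8 and Ifnlr1 had log2 FC of -0.39 and -0.28 (edgeR adjusted p = 0.102 and 0.179).

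The smallest p in the comparison belonged to Btnl6, a butyrophilin-like gene of the gut epithelium. Its level was 82.8, 81.9 and 77.9 CPM in treated B6 colons and 8.95, 10.5 and 9.41 CPM in treated mutants. Replicates of both genotypes lay within a narrow band, and the log2 FC was -3.09 (SE 0.10, edgeR adjusted p = 1.62e-06). Btnl5 was at 218, 211 and 216 CPM in B6 and at 106, 98.4 and 98.0 CPM in mutants (log2 FC -1.11, SE 0.08). Btnl4 was at 54.9, 53.7 and 52.8 CPM in B6 and at 27.5, 24 and 24.4 CPM in mutants. Its mutant colons were also at a lower and even level (SE 0.09). Btnl1, whose product pairs with others of the family at the cell surface, was at 18.8, 35.7 and 23.6 CPM in B6 and at 8.82, 9.38 and 10.9 CPM in mutants. It was lower in each mutant but outside the call rule (log2 FC -1.44, edgeR adjusted p = 0.0176). In all, 3 of the 4 tested genes of the family were called lower, 0 higher, and the median was -1.27. This list, like the others, was chosen with earlier results of these data known, so its counts are a description, not a test. Btnl4, Btnl5 and Btnl6 resemble one another closely in sequence, so reads may be shared among them and the single counts are uncertain. Their summed level with Btnl1 was 374, 383 and 370 CPM in treated B6 and 152, 142 and 143 CPM in treated mutants. The sum in untreated colons was 340, 365 and 365 CPM in B6 and 154, 155 and 160 CPM in mutants.

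In cell death and inflammasome genes, 3 of 27 were called lower and 0 higher, 10 had a positive log2 FC, and the list median was -0.17. Nlrp6, an inflammasome sensor of the colonic epithelium, was at 181, 117 and 151 CPM in treated B6 colons and at 41.4, 46.2 and 62.1 CPM in treated mutants. All mutants were below all B6 mice (log2 FC -1.60, SE 0.19, edgeR adjusted p = 0.00544). Gsdmd, whose cleaved product forms pores in the membrane, was at 157, 132 and 152 CPM in B6 and at 88.7, 78.7 and 87.9 CPM in mutants. It fell without overlap between the groups (log2 FC -0.81, SE 0.10). Nlrp6 was called in 2 and Gsdmd in 1 of the 6 leave-one-out fits. Casp1, the inflammasome protease, had a log2 FC of -0.38 (edgeR adjusted p = 0.0712), and after the GC correction one of -0.61 (adjusted p = 0.00839), which met the call rule.

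Several genes with large decreases stand outside these lists. Gm14446, a predicted interferon-inducible gene with near-identical relatives and so an uncertain count, was at 336, 288 and 286 CPM in B6 and at 28.5, 38.5 and 17.0 CPM in mutants. Its log2 FC was -3.45 (SE 0.26, edgeR adjusted p = 0.000594), the most negative among the called genes. AW112010, a transcript induced by interferon, was at 53.7, 91.0 and 86.4 CPM in B6 and at 14.3, 12.7 and 13.9 CPM in mutants. Groups were far apart for both genes (log2 FC of AW112010 -2.52). Upp1, which breaks down uridine, was at 45.2, 80.5 and 93.8 CPM in B6 and at 8.55, 11.3 and 9.10 CPM in mutants. Ly75, an endocytic receptor that feeds antigen to MHC pathways, was at 65.3, 68.3 and 74.0 CPM in B6 and at 11.8, 16.9 and 18.2 CPM in mutants. Mutant levels were lower throughout, with log2 FC of -2.94 for Upp1 and -2.17 for Ly75. Mettl7a2 and Mettl7a3, methyltransferase-like genes with near-identical sequences, had log2 FC of -1.81 and -1.74 and were called in 6 and 2 of the 6 leave-one-out fits.

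The other 14 called lower genes were named after their values were seen. Sectm1b, a gene for a secreted and membrane protein, was at 306, 236 and 305 CPM in B6 and at 90.4, 98.9 and 124 CPM in mutants (log2 FC -1.45). Entpd4, a nucleotidase of internal membranes, was at 98.4, 111 and 104 CPM in B6 and at 50.1, 47.8 and 51.4 CPM in mutants (log2 FC -1.09). Groups were separate and the mice within each close together for Entpd4. Tnfrsf14, a receptor of the TNF family that engages Btla, had a log2 FC of -1.39 and Cd200r2 one of -1.11. Plac9b had -1.65, 9130017N09Rik -0.88, Pygm -0.87 and Nmi, which binds Stat proteins, -0.86. The smallest changes of the 14 were in Tcirg1 (-0.80), Ogfr (-0.80), Rmdn3 (-0.79), Gcnt1 (-0.78), Ano9 (-0.76) and Trafd1 (-0.72). In the GC-corrected values the adjusted p of 9130017N09Rik, Tcirg1, Rmdn3, Ano9 and Trafd1 was 0.0112, 0.0190, 0.0134, 0.0125 and 0.0134 in edgeR, no longer under 0.01, while their log2 FC was -0.72, -0.64, -0.70, -0.69 and -0.61. Among the 14 genes, Entpd4 was called in all 6 leave-one-out fits and Sectm1b in 3, while Nmi, Cd200r2, Rmdn3 and 9130017N09Rik were called in 0. The other 8 were called in 1 or 2.

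The 9 genes called higher in treated mutants follow. Mt1 and Mt2 encode metallothioneins, which bind zinc and copper. Mt1 was at 53.5, 43.0 and 55.4 CPM in treated B6 colons and at 133, 107 and 125 CPM in treated mutants. Mt2 was at 10.9, 15 and 20.2 CPM in B6 and at 61.2, 45.3 and 52.8 CPM in mutants. All mutants stood above all B6 mice, with log2 FC of 1.25 for Mt1 and 1.77 for Mt2 (edgeR adjusted p = 0.00257 and 0.00569). The short Mt1 and Mt2 transcripts are similar in sequence, so how reads divide between them is uncertain. Of the 6 leave-one-out fits, 3 called Mt1 and 2 called Mt2. In untreated mice Mt1 stood at 102, 104 and 69.7 CPM in B6 and at 102, 102 and 98.4 CPM in mutants, which overlap. Untreated Mt2 stood at 25.6, 28.2 and 15.9 CPM in B6 and at 43.2, 40.8 and 38.4 CPM in mutants, which do not overlap. The genotype difference at D26 minus that without treatment, on the log2 scale, was 1.13 for Mt1 and 0.98 for Mt2 (edgeR adjusted p = 0.0649 and 0.146). With the other set of untreated B6 mice it was 0.71 for Mt1 and 0.62 for Mt2 (edgeR adjusted p = 0.451 and 0.498).

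Wdfy1, an endosomal adaptor of innate signalling, was at 46.0, 44.9 and 42.9 CPM in B6 and at 106, 88.6 and 85.0 CPM in mutants. The groups stood well apart (log2 FC 1.05, SE 0.10, edgeR adjusted p = 0.00209), and Wdfy1 was called in 4 of the 6 leave-one-out fits. Untreated colons had 41.5, 38.3 and 47.0 CPM in B6 and 96.2, 97.1 and 97.8 CPM in mutants, so a gap of like size was seen without treatment. Plau, the urokinase that activates plasminogen in matrix remodelling, was at 28.8, 37.6 and 34.1 CPM in B6 and at 76.8, 65.4 and 59.6 CPM in mutants. It was higher in every mutant (log2 FC 0.99, SE 0.13, edgeR adjusted p = 0.00856), but it was called in 0 of the 6 leave-one-out fits. After the GC correction its log2 FC was 0.98 and its adjusted p 0.0125, so the call was lost at nearly the same FC.

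Zfp433, a zinc finger gene, had a log2 FC of 0.88, OTTMUSG00000016609 of 1.10, Lrrc19, a kidney and gut leucine-rich repeat receptor, of 0.79, Sh3bgrl of 0.76 and Gmfb of 0.61. All have lower GC content than the median of tested genes except OTTMUSG00000016609, for which no GC value was available. After the GC correction the log2 FC was 0.56 for Zfp433, 0.35 for Lrrc19, 0.37 for Sh3bgrl and 0.31 for Gmfb, and none of these 4 was called. In the 6 leave-one-out fits, Lrrc19, Sh3bgrl and Gmfb were called in 0, Zfp433 in 1 and OTTMUSG00000016609 in 2. For all 5 genes the treated B6 colons were the low group, below every library of the 3 other groups, and the treated mutants had a lower mean than the untreated mutants. Lrrc19 was at 38.1, 43.2 and 35.1 CPM in treated B6 and at 64.2, 64.0 and 75.7 CPM in treated mutants, and untreated colons had 80.9, 90.0 and 85.3 CPM in B6 and 82.8, 93.1 and 80.4 CPM in mutants. Means of treated B6, treated mutants, untreated B6 and untreated mutants were 71.4, 110, 118 and 122 CPM for Gmfb and 72.6, 124, 135 and 143 CPM for Sh3bgrl. They were 32.3, 59.9, 58.2 and 64.6 CPM for Zfp433 and 24.5, 53.2, 64.5 and 62.3 CPM for OTTMUSG00000016609. Treated B6 was the low group for Mt1 as well.

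Most of the lower genes were also lower without treatment. The Psmb10 level in untreated colons was 62.5, 65.6 and 60.3 CPM in B6 and 17.5, 20.9 and 19.7 CPM in mutants. For Gbp2 it was 38.3, 41.8 and 41.6 CPM in B6 and 8.90, 7.31 and 7.33 CPM in mutants. For Btnl6 it was 70.3, 73.8 and 86.1 CPM in B6 and 9.03, 10.3 and 12.5 CPM in mutants. Each of these genes separated the genotypes in both states. For 38 of the 39, the untreated mutant libraries lay below all untreated B6 libraries, which held for 1536 (12.3%) of the genes tested. The exception was Pygm, the glycogen phosphorylase of muscle, at 29.8, 33.1 and 31.2 CPM in untreated B6 and 26.9, 31.8 and 28.8 CPM in untreated mutants. Its treated colons had 33.7, 36.2 and 37.8 CPM in B6 and 20.6, 18.5 and 20.7 CPM in mutants. Skeletal muscle markers summed to 298, 562 and 386 CPM in treated B6 and to 239, 128 and 191 CPM in treated mutants. Without treatment they summed to 245, 207 and 238 CPM in B6 and to 270, 362 and 254 CPM in mutants, so they too were lower in mutants only among treated colons, and their part in the Pygm difference was not tested. For 3 of the 9 higher genes the untreated mutants lay above, against 1669 (13.4%) of the genes tested. The treated and untreated comparisons share no mice. The genotype difference at D26 minus the difference without treatment was also tested. As the D26 difference is part of this term and chose the called genes, its sign among them was not counted, and the next counts are favoured by that choice. Of the 39 lower genes, 0 had an adjusted p under 0.05 for the term in edgeR and 3 in DESeq2, or 0 and 2 with the other set of untreated B6 mice. Of the 9 higher genes, 1 had one in edgeR and 7 in DESeq2, or 0 and 5 with the other set. The 1 was OTTMUSG00000016609 at 1.17 (edgeR adjusted p = 0.0352), and with the other set at 1.09 (adjusted p = 0.0862). Over all genes tested, edgeR called 2 (0.0160%) and 2108 had an unadjusted p under 0.05. Both called genes, Akap5 and Lrrc17, were chosen after their values were seen and were no longer called with the other set of untreated B6 mice. Leaving out 1 mouse at a time gave between 1 and 9 calls, the latter without B6 D26 replicate 2 and 3 without B6 D26 replicate 3. It gave 2 calls without untreated mutant replicate 3 and 1 call without each of the other 9 mice.

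Some genes that the study's paper names for these colons were followed whatever their values. Usf1, a transcription factor, was at 52.1, 48.4 and 49.9 CPM in treated B6 colons and at 30.1, 35.1 and 34.3 CPM in treated mutants. Groups did not overlap (log2 FC -0.61, SE 0.09, edgeR adjusted p = 0.0147), and after the GC correction the log2 FC was -0.47 (adjusted p = 0.0605). Dact2, an inhibitor of Wnt and Nodal signals, was at 28.6, 23.8 and 27.2 CPM in B6 and at 14.8, 16.6 and 18.3 CPM in mutants (log2 FC -0.70, edgeR adjusted p = 0.0302, after the GC correction -0.52). Neither gene met the adjusted p of 0.01. The complement gene C3 was at 246, 348 and 242 CPM in B6 and at 357, 349 and 280 CPM in mutants, with groups that overlap. C4a and C4b, near-identical genes of the same cascade with uncertain counts, had log2 FC of 0.34 and 0.33, and C3 0.23. The TNF receptor family genes Tnfrsf11b and Tnfrsf1b had log2 FC of 0.27 and -0.02. Among myeloid receptors and their partners, the log2 FC was 0.23 for Clec7a, 0.40 for Clec4n, -0.09 for Tyrobp, 0.21 for Sirpa and -0.12 for Cd68. Libraries overlapped for each of these 10 genes after Dact2. The sign of Tnfrsf1b, Clec7a, Tyrobp and Cd68 changed with the GC correction or with 1 mouse left out. Of the complement list, 0 of 20 tested genes were called in edgeR, 0 in DESeq2, the exact test and voom, and 5 had an unadjusted p under 0.05. For 12 the log2 FC was positive, with a list median of 0.04. Mcpt1 and Mcpt2, mast cell proteases, were tabulated only for mutants and could not be tested.

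Lists of epithelial functions were followed as well, beside 22% of all tested genes with an unadjusted p under 0.05. Of 25 goblet cell genes 1 was called lower, which was Nlrp6 again, with 15 positive and a median log2 FC of 0.07. An unadjusted p under 0.05 was found for 4, and DESeq2 and the exact test each called 1 higher and 1 lower. Muc1, a membrane mucin, had a log2 FC of 0.98 (edgeR adjusted p = 0.0648). Of 36 genes of absorptive colonocytes 1 was called higher, Lrrc19, with 10 positive and a median of -0.21. Here 16 of the 36 had an unadjusted p under 0.05. DESeq2 called 1 higher and 1 lower, and the exact test 1 higher and 2 lower. Of 33 genes for repair, oxidase and antimicrobial functions 1 was called higher, Plau, with 19 positive and a median of 0.04. For 9 the unadjusted p was under 0.05, and DESeq2 and the exact test called 2 higher. Dmbt1, a secreted scavenger protein of mucosal defence, was at 6153, 6108 and 6198 CPM in B6 and at 7611, 9518 and 9322 CPM in mutants (log2 FC 0.50, edgeR adjusted p = 0.0463). It was higher in all mutants, below the FC of 1.5. In 63 genes of drug and xenobiotic metabolism 0 were called in edgeR and voom, 3 lower in DESeq2 and 4 in the exact test, and 17 had an unadjusted p under 0.05. Of these 63, 21 were positive with a median of -0.09, and Sult1a1, a sulfotransferase, had a log2 FC of -1.13 (edgeR adjusted p = 0.0564).

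Growth lists lay near the median of all genes. Of 49 genes for the cell cycle and DNA replication 0 were called in edgeR and voom, 1 lower in DESeq2 and the exact test, and 2 had an unadjusted p under 0.05. Their log2 FC was positive for 23 and had a median of -0.02. Of 35 genes of the Wnt pathway and crypt stem cells 0 were called in edgeR and voom, 2 lower in DESeq2 and the exact test, and 8 had an unadjusted p under 0.05. Usf1 and Dact2 were the 2 with an adjusted p under 0.05 at an FC of 1.5 or more, and the list had 19 positive genes and a median of 0.02. In 49 collagens, matrix proteins and matrix enzymes 1 was called higher, Plau, with 34 positive and a median of 0.08. After the GC correction 40 were positive and the median was 0.17. For 8 the unadjusted p was under 0.05, and DESeq2 called 2 higher. Of 40 cytokines, chemokines and their receptors 0 were called in edgeR and voom, 1 lower in DESeq2 and the exact test, and 7 had an unadjusted p under 0.05, with 23 positive and a median of 0.09. The interleukin receptor Il17rc was at 102, 95.7 and 115 CPM in B6 and at 64.7, 61.8 and 75.7 CPM in mutants, without overlap (log2 FC -0.65, edgeR adjusted p = 0.0241). The edgeR calls were also 0 among 30 cholesterol genes (18 positive, median 0.03), 21 immediate early and AP-1 genes (6 positive, median -0.10) and 35 heat shock and chaperone genes (19 positive, median 0.04). Of these, 4, 6 and 3 had an unadjusted p under 0.05. DESeq2 called 0 cholesterol genes, 1 immediate early gene lower and 1 chaperone gene higher.

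Clock genes had the most positive median of the gene lists, at 0.43 over 18 tested genes with 13 positive. In edgeR 0 were called, 3 had an adjusted p under 0.05 at an FC of 1.5 or more and 10 an unadjusted p under 0.05, while DESeq2 called 2 lower and 1 higher. Arntl, an activator of the clock, was at 85.4, 75.7 and 36.6 CPM in treated B6 colons and at 31.6, 20 and 22.1 CPM in treated mutants (log2 FC -1.44, edgeR adjusted p = 0.0466). Nr1d2, a repressor of Arntl, was at 71.7, 62.4 and 102 CPM in B6 and at 138, 192 and 165 CPM in mutants (log2 FC 1.05, edgeR adjusted p = 0.0318). B6 replicate 3 was nearest to the mutants for both genes, and the groups did not overlap. Npas2, a partner of the activators, was at 37.2, 35.4 and 22.8 CPM in B6 and at 17.5, 14.5 and 16.3 CPM in mutants, again without overlap. Means of untreated B6 and untreated mutants were 31.1 and 29.3 CPM for Arntl, 166 and 155 CPM for Nr1d2, and 15.8 and 17.5 CPM for Npas2. For each of these genes treated B6 was thus the group whose mean stood apart, while treated mutants lay near the untreated means. The hour at which the colons were taken is not given in the sources used here, and its part in these values was not tested.

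Genes near Irf1 on its chromosome were listed because DNA around a deleted gene can come from another strain. Of 82 tested genes within 5 Mb, 0 were called in edgeR and voom, 3 lower in DESeq2 and 4 in the exact test, and 24 had an unadjusted p under 0.05. Of the 82, 36 had a positive log2 FC, and the list median was -0.04. Lypd8, a secreted protein of the colonic epithelium, was at 5211, 4864 and 4915 CPM in B6 and at 3337, 3288 and 3772 CPM in mutants (log2 FC -0.55, edgeR adjusted p = 0.0261). Sap30l had a log2 FC of -0.51, and 4 of the 12 tested GTPases, Igtp, Irgm1, Irgm2 and Tgtp2, are also among these neighbours.

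**Figure D3:**
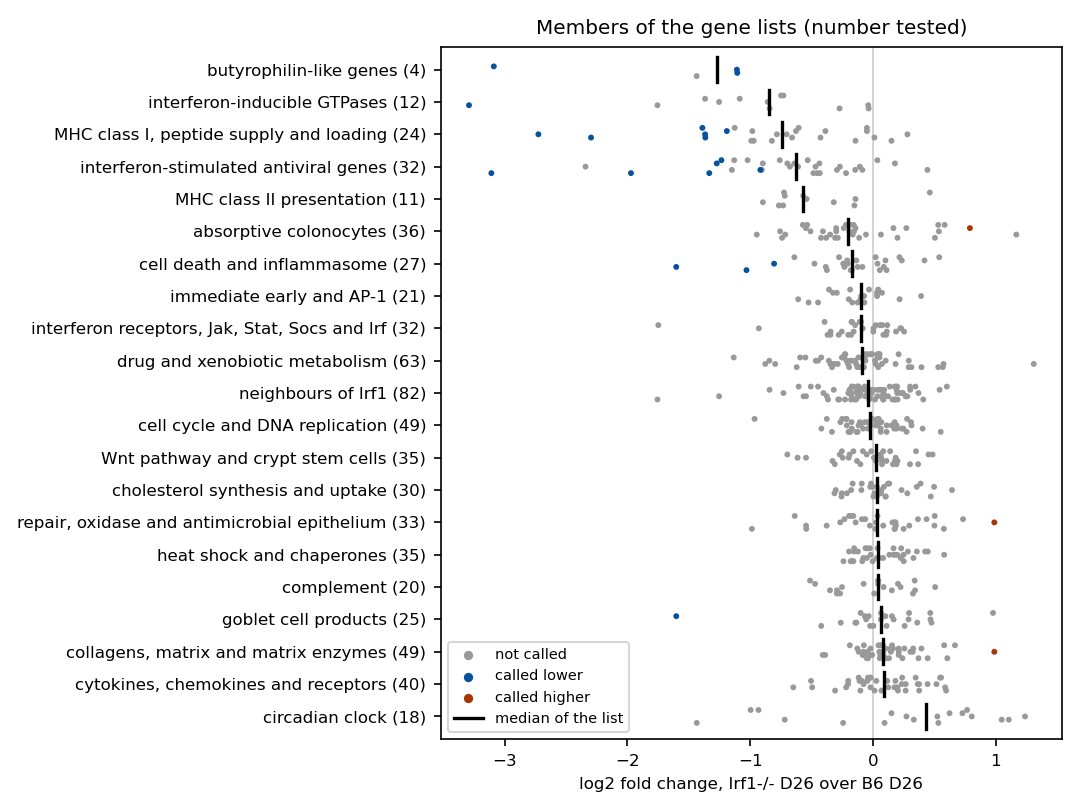
Log2 FC of treated mutants over treated B6 colons for each tested member of the gene lists, with 1 point per gene and a line at the median of the list. Medians range from -1.27 in butyrophilin-like genes to 0.43 in clock genes, against -0.01 over all genes tested. The lists were chosen with earlier results of these data known.

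Markers of cell types were summed per colon to show what else differed between the samples. Skeletal muscle genes, which are not part of the normal distal colon wall, summed to less in every treated mutant than in any treated B6 colon, as given beside Pygm. All 9 tested markers had a negative log2 FC (median -1.02), and Acta1 was the most abundant. In edgeR 0 of the 9 were called and 9 had an unadjusted p under 0.05, while DESeq2 called 6 and the exact test 7 lower. Their part in the result was not tested. The sum of 13 squamous epithelium markers, led by Krt6a, was 794, 1310 and 956 CPM in B6 and 767, 1298 and 1880 CPM in mutants, with 11 positive and a median of 0.37. None of the tools called any of the 13, and 0 had an unadjusted p under 0.05. The sums overlapped, and mutant replicate 3 was the highest. The 14 pan-epithelial markers, led by Krt8, summed to 10636, 11131 and 11071 CPM in B6 and to 9525, 8594 and 9772 CPM in mutants. They were lower in every mutant, with 1 positive log2 FC and a median of -0.26, or -0.12 after the GC correction. None of the 14 was called by edgeR, DESeq2, the exact test or voom, and 8 had an unadjusted p under 0.05. Their part in the differences was not tested either.

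The immune marker lists held 0 calls in edgeR and voom, and DESeq2 and the exact test called 1, a B and plasma cell gene, higher. An unadjusted p under 0.05 was found for 2 pan-leukocyte, 4 macrophage and monocyte, 5 B and plasma cell, 1 neutrophil and 1 lymphocyte marker. The 16 pan-leukocyte markers, led by Lcp1, summed to 387, 557 and 492 CPM in B6 and to 572, 571 and 463 CPM in mutants, with 12 positive and a median log2 FC of 0.13. The 22 macrophage and monocyte markers, led by Lyz2, summed to 915, 1222 and 1012 CPM in B6 and to 929, 957 and 1031 CPM in mutants, with 7 positive and a median of -0.15. Both sums overlapped between genotypes. For 13 B and plasma cell markers the median was 0.22 with 10 positive, while the sums, led by Igj, were 458, 721 and 440 CPM in B6 and 489, 418 and 279 CPM in mutants. Ms4a1, a B cell surface protein, was at 4.92, 6.46 and 8.70 CPM in B6 and at 15.7, 16.9 and 12.2 CPM in mutants (log2 FC 1.14, edgeR adjusted p = 0.0432). It was higher in all mutants while the sum of the list was not. Few markers of other immune cells were among the genes tested. Tested were 4 of 34 genes of T, NK and intraepithelial lymphocytes (2 positive, median 0.06) and 3 of 15 neutrophil genes (3 positive, median 0.17). For eosinophils 1 of 11 was tested, Il5ra at a log2 FC of 0.17, and for mast cells 1 of 14, Kit at -0.07.

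Stromal and other lists had 0 calls in edgeR. DESeq2 and the exact test called 1 adipocyte marker lower and 1 marker of enteric neurons and glia higher. An unadjusted p under 0.05 was found for 2 smooth muscle, 1 fibroblast, 0 endothelial, 1 adipocyte, 2 neuron and glia, 0 enteroendocrine and 2 tuft cell markers. The median log2 FC was -0.07 over 23 smooth muscle markers (9 positive), -0.02 over 13 fibroblast markers (6 positive), -0.02 over 12 endothelial markers (5 positive) and -0.15 over 4 adipocyte markers (0 positive). It was -0.03 over 11 markers of enteric neurons and glia (3 positive), -0.05 over 10 enteroendocrine markers (3 positive) and 0.09 over 5 tuft cell markers (3 positive).

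**Figure D4:**
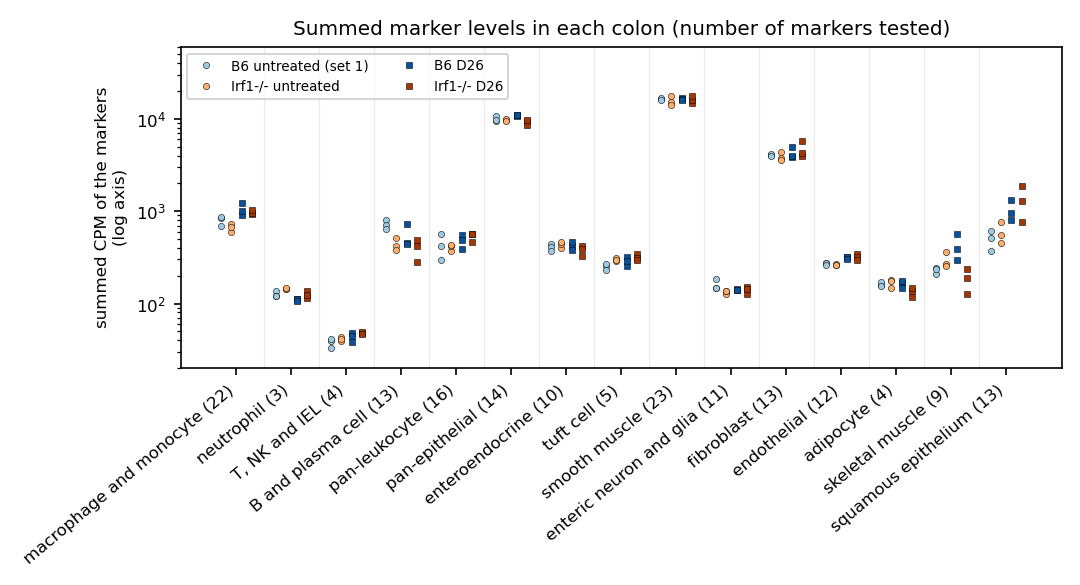
Summed level of the tested markers of each cell type in each colon (CPM), with 1 point per mouse for treated and untreated B6 mice and mutants. Skeletal muscle sums are 298 to 562 in treated B6 and 128 to 239 in treated mutants.

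Because Irf1 binds promoters, those in the RefSeq table (mouse build GRCm38.p6, 250 bases before to 50 after each start) were searched on both strands. The letters GAANNGAAA are the core of the element that Irf factors bind, and TTCNNNGAA that of Stat dimers. A promoter was found for 79.1% of the tested and 71.8% of the called lower genes. As less than 80% of each had one, a comparison of shares is void. GAANNGAAA occurred for 743 of 9877 tested genes (7.52%) and 7 of 28 called lower genes (25.0%), and TTCNNNGAA for 813 (8.23%) and 1 (3.57%). The 7 were Btnl4, Btnl6, Psme1, Ddx60, Cd200r2, Ogfr and Gcnt1. Psmb10, Ly75, Uba7, Gm14446, AW112010, Tapbp and Mettl7a2 had a smaller p than Btnl4, but their promoters held no match. Among the genes with a match, the promoters of the 3 with the smallest p are shown. The capitals mark the match, which in all 3 reads as the reverse complement of GAANNGAAA. They lie at chr17:34517303-34517602 (minus strand, Btnl6), chr17:34475888-34476187 (minus strand, Btnl4) and chr14:55578244-55578543 (plus strand, Psme1).
Btnl6: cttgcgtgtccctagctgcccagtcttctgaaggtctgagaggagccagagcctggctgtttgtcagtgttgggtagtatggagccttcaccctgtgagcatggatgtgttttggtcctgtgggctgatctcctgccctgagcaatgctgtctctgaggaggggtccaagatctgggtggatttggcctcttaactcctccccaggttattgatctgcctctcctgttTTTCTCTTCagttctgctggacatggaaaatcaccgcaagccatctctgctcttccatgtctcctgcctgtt
Btnl4: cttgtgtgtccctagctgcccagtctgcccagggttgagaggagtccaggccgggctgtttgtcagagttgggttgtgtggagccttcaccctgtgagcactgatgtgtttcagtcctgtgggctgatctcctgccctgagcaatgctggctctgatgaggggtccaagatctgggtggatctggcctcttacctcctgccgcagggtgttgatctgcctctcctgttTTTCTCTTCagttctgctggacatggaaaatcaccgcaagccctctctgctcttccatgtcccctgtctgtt
Psme1: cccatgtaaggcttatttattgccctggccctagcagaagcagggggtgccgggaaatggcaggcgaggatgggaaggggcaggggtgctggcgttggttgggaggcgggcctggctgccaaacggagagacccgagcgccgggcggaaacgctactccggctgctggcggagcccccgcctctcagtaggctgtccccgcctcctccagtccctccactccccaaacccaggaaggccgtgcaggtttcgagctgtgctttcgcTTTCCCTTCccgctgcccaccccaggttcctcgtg
The match begins at base 229 of the window in both Btnl6 and Btnl4, which is 22 bases before the start, and at base 266, after the start, in Psme1. A match is a description, not a site or a cause.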

How the data were processed

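The values deposited are unnormalized counts of reads for each gene. Totals of the 15 libraries lay in a narrow range, from 22266607 to 22869853 reads in their own tables. Whether reads were evened out before counting was not tested. The submitters' notes name TopHat2 2.0.9 with Bowtie 1.0.0 on mm9, featureCounts and edgeR. The authors had kept genes with at least 5 CPM in 3 or more libraries of a table. Their comparison columns hold fold changes and p-values, which were not used, nor were the 36 columns of their CPM.

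Counts of the 6 libraries were scaled by TMM and fitted with the quasi-likelihood model of edgeR 4.0.16 in R 4.3.3, with Benjamini-Hochberg adjustment over all 12483 genes. Unless stated otherwise, printed CPM share 1 TMM scale over 12 libraries, with control set 1 and the untreated mutants. These 12 libraries were also fitted together for the difference between genotype differences.

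Members and lists were chosen with earlier results of these data known. Named by rule were Irf1, 14 genes of the paper, up to 12 called genes a direction, those of largest log2 FC among genes with non-overlapping libraries, and in each of 22 gene lists and 17 marker lists up to 4 tested members with the smallest p plus any further called member. A few genes that this rule names are not reported here. Alternatives were RLE size factors, DESeq2 1.42.0, edgeR's exact test, limma 3.58.1 voom, 1 fit of all 15 libraries, replicate number as block, a lowess correction on GC content (span 0.3), both together, an adjusted p under 0.05, no FC limit, a mean of at least 10 CPM, log2 Xist as a covariate, each mouse left out, and the other or both untreated B6 sets for the difference between differences. Python 3.11.15, pandas 2.3.3, numpy 2.4.6 and matplotlib 3.10.9 were used.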

Additional observations from a re-analysis of the deposited data

Results flagged for a closer look

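For 2 genes the difference between genotypes at D26 was unlike that without treatment by a test of that difference in edgeR. Akap5 had a difference of 1.83 on the log2 scale (adjusted p = 0.000675) and Lrrc17 of 1.598 (adjusted p = 0.00611). The Akap5 level was 26.1, 25.3 and 27.6 CPM in untreated B6 mice of control set 1 and 9.30, 9.62 and 11.3 CPM in untreated mutants, while at D26 it was 16.8, 18 and 19 CPM in B6 and 20.8, 28.0 and 24.7 CPM in mutants. In untreated B6 mice of control set 2 Akap5 was at 9.33, 8.89 and 7.28 CPM, scaled over all 15 libraries. With control set 2 in place of set 1 the values were 0.20 for Akap5 (adjusted p = 0.650) and 0.26 for Lrrc17 (adjusted p = 0.581).

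Genes deposited for 1 genotype only take no part in the comparison, 209 in the mutant table and 160 in the B6 table. Of these, 11 (5.26%) and 8 (5%) lay at D26 above all untreated mice of the same table with a mean at least 2 times theirs, and 5 and 1 lay below all of them by as large a factor. Among genes of the lists, the markers and the paper, this rise was seen for 2 of 12 in the mutant table and 5 of 22 in the B6 table, and the fall for 0 and 0. A table holds only genes with at least 5 CPM in 3 or more of its libraries. Genes low without treatment thus entered it through their D26 libraries, and genes low at D26 through the untreated ones. The filter therefore shapes these counts of rises and falls, which are no test. The other 10 and 17, with Gbp4, Gbp5, Gbp8, Gbp10, Psmb9 and Rtp4 among the latter, did not meet the rule. Gfap, Nefl and Gap43 were lower at D26 in each B6 library, with means of 3.13, 4.19 and 4.61 CPM against 5.32, 5.76 and 5.63 CPM untreated. In mutants, Mcpt1 had a mean of 21.6 CPM at D26 against 3.74 CPM untreated, and Mcpt2 of 10.1 against 1.58 CPM. Replicate 1 was far above the others for both, with 35.81, 15.2 and 13.75 CPM for Mcpt1 and 18.02, 5.42 and 6.79 CPM for Mcpt2 at D26. In B6 mice, Alox15 had a mean of 8 CPM at D26 against 2.27 CPM untreated, Ccl8 of 13.5 against 3.62, Ifi47 of 13.6 against 4.74, Rsad2 of 13.1 against 6.47 and Zbp1 of 18.5 against 5.88 CPM. Replicate 2 was far above the others for Ifi47, at 6.92, 24.2 and 9.55 CPM in the D26 colons.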

How the results depend on the processing

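The 191 named genes were followed through 18 alternatives, in 3428 values. Direction and side of the call threshold were kept in 3017 of them, 260 kept the direction but were no longer called, 125 were newly called, and 26 in 11 genes changed sign. None of these 11 genes was called.

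Genes called lower were 39 and genes called higher 9. RLE size factors (39 and 10), limma voom (37 and 7), no FC limit (39 and 9), a mean of at least 10 CPM (39 and 10) and Xist as a covariate (34 and 10) stayed within 1.5 times these counts. More genes were called by DESeq2 (142 lower, 128 higher), edgeR's exact test (149, 126), all 15 libraries in 1 fit (113, 127) and an adjusted p under 0.05 (106, 78). The GC correction gave 42 lower and 4 higher. Of the 48 genes, all were called by DESeq2 and the exact test, 47 with all libraries, 43 by voom and 38 after the GC correction. With 1 mouse left out, the ranges were 16 to 45 lower and 1 to 8 higher. Apart from the looser threshold, the cause of these shifts was not tested.

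A block for the replicate number left 6 genes lower and 1 higher, and the GC correction with it 7 and 1. Across genes, the deviations of same-numbered libraries from their group means correlated with r of -0.22, -0.15 and 0.18, so that the libraries share only a number. The block also leaves fewer degrees of freedom.

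The 2 genes whose genotype difference differed between D26 and no treatment became 75 with DESeq2 and 6 with an adjusted p under 0.05. With control set 2 there were 0 in edgeR (1854 at an unadjusted p under 0.05, 34 called by DESeq2), and with both sets 0 (1870 and 38). Leaving out each of 12 mice gave 1 to 9. The cause was not tested.

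Signs of log2 FC changed after the GC correction for Cd24a (-0.023), Clec7a (-0.006), Dcn (-0.232), Emcn (-0.03), Tnfrsf1b (0.09), Tyrobp (0.038) and Xist (-0.139). With the block as well they changed for Cd24a (-0.024), Dcn (-0.233), Emcn (-0.031), Il5ra (-0.002), Tnfrsf1b (0.091) and Tyrobp (0.053). With Xist as a covariate they changed for Tnfrsf1b (0.04) and Xist itself (-0.01). With 1 mouse left out in turn, the log2 FC ranged from -0.253 to 0.01 for Cd68, from -0.159 to 0.103 for Fabp4, from -0.001 to 0.23 for Tie1, from -0.175 to 0.129 for Tnfrsf1b, from -0.193 to 0.068 for Tyrobp and from -0.845 to 5.842 for Xist. The sign changed without B6 replicate 2 for all of these but Fabp4 and Tie1. It changed without B6 replicate 1 for Xist, without B6 replicate 3 for Fabp4, without mutant replicate 1 for Tie1, without mutant replicate 2 for Fabp4, Tnfrsf1b and Xist, and without mutant replicate 3 for Tnfrsf1b. The cause was not tested.

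With 3 mice of a genotype, small differences cannot be resolved, and genes under the authors' minimum of 5 CPM were not analysed here.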
